A study of Homo sapiens with 8 samples.

Results

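The members described here are 4177 Ago2 peaks in the coding sequence of transcripts that also carry at least 1 Ago2 peak in their 3' UTR. They were chosen by their class in the authors' deposited table (coding exon) and by the presence of a 3' UTR row with the same RefSeq transcript, and genes with a ZNF number as symbol were left out. The members are 18.6% of the 22506 peaks of that table and lie in 1779 transcripts of 1774 genes. The same transcripts hold 6887 peaks in their 3' UTRs, which serve as the comparison within each transcript. A further 3118 coding peaks lie in 2030 transcripts without a 3' UTR peak, and 119 coding peaks of ZNF genes met the rule but for their symbol.

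Argonaute proteins carry microRNAs, whose seed pairs with target RNAs. Sites in 3' UTRs are the best known for repression in animal cells. Argonaute is also crosslinked to coding sequence, where elongating ribosomes pass over a bound complex. Emetine blocks elongation by binding the small ribosomal subunit, so ribosomes stay on the message and no longer move through it.

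The cells were 293S, derived from the HEK293 line of human embryonic kidney. One group of libraries came from cells given 20 µg/mL emetine for 60 minutes and the other from cells without emetine, called the control here. There was 1 culture per treatment. From each culture 3 aliquots went to crosslinking and immunoprecipitation (CLIP), every aliquot with another antibody against Ago2 (Abnova, Santa Cruz or Sigma), and 1 aliquot went to RNA-seq, so the series has 6 CLIP and 2 RNA libraries. All p-values below therefore measure the spread between aliquots and antibodies of a single culture, and the spread between cultures was not measured. The libraries are bulk samples, in which fewer cells with a bound RNA and less binding per cell cannot be told apart.

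The deposited table gives each peak a log average and a log ratio, and reads per library were recovered from these for 22504 of 22506 peaks, including every member. Within each treatment the libraries carry the numbers 1 to 3 in order of what a single read is worth after the authors' normalisation, the highest first, and no antibody is assigned to a number. Library 1 of each treatment is the shallowest, with 41219 reads in peaks for emetine and 40003 for control, against 97432 to 117950 in the others. Library 1 also holds more reads in exons of noncoding transcripts, 45.5% with emetine and 42.9% in the control, against 6.43% to 13.8% elsewhere. Values from libraries 2 and 3 alone are given beside several results for this reason. Of 11 genes listed as markers of this cell line, NEFL, VIM, LIN28B, IGF2BP1 and SOX11 have peaks and the other 6 have none. Markers of other cell types have peaks in 0 of 20 genes. A gene without a peak can still be expressed.

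Coding members were narrow and thinly covered. Their median width was 27 nt (quartiles 23 and 36), against 31 nt (25 and 41) for the 3' UTR peaks of the same transcripts. A member held a median of 15 reads over the 6 libraries, with 11 as the fewest and 302 as the most. The most-read member lies in MAPK8IP2, a scaffold protein of JNK signalling, on chromosome 22 from 51041746 to 51041771 (plus strand, hg19), with 50, 65 and 39 reads after emetine (libraries 1, 2 and 3 in that order, as throughout) against 72, 47 and 29 in the control. Reads fell in a single library for 1262 members (30.2%) and in at least 3 libraries for 1613, and 64 members (1.53%) had reads in every library. Of the 3' UTR peaks of the same transcripts, 18.8% rested on a single library and 5.29% had reads in each of the 6.

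In the authors' deposited table, which sets Ago2 signal against the RNA of the transcript, the median log2 average was -9.15 for members, -8.76 for the 3' UTR peaks and -8.57 for all peaks. Within a transcript the coding average was lower than the 3' UTR average in 1109 of 1779 transcripts (62.3%), with a median difference of -0.20 on the log2 scale. Transcripts with both kinds of peak were well covered by RNA reads, with medians of 487 reads with emetine and 193 in the control. For transcripts with coding peaks alone these medians were 304 and 114 reads. Per length the coding sequence held fewer peaks than the 3' UTR. With region lengths taken from the GENCODE 29 annotation for 1728 transcripts (97.1%), there were 1.01 peaks and 17.9 reads per kilobase of coding sequence, against 1.76 peaks and 39.0 reads per kilobase of 3' UTR. The read density of the coding sequence was the higher one in 525 transcripts (30.4%), and the median ratio of the densities was 0.526 (quartiles 0.201 and 1.25). These values depend on the rule, which requires at least 1 peak in each region, and they carry no test.

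A single coding member was the commonest case, in 877 transcripts, and 399 transcripts held 2, 373 held 3 to 5 and 130 held 6 or more. The median number of 3' UTR peaks was 2 in transcripts with 1 or 2 members, 3 in those with 3 to 5 and 4 in those with 6 or more. The largest number was 35 members, in TNC. Coding peaks took a median of 39.5% of the reads of a transcript (quartiles 22.8% and 57.7%), over 75% in 151 transcripts and under 10% in 122. Most members lie far from the 3' UTR peaks, at a median genomic distance of 5993 bases to the nearest, introns included. Only 67 members lie within 50 bases of a 3' UTR peak, and 19 of these overlap it. At the edge of the rule, the 639 transcripts with exactly 1 peak in the 3' UTR hold 1235 coding peaks with a median log2 change of 0.16, and the 3118 coding peaks of transcripts with none have a median of 0.39.

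The comparison of treatments asked whether Ago2 signal in coding sequence differed when elongation was blocked. By their medians, coding members were slightly higher with emetine, by more than the 3' UTR peaks of the same transcripts, whose own direction varied with the library left out. A change is the difference of the mean log2(reads × factor + 1) between emetine and control libraries. Its median was 0.24 for members, -0.11 for the 3' UTR peaks and 0.01 for all peaks. Of the members, 2253 (53.9%) were above 0 and 1924 below, where the background over all tested peaks was 50.2% above and 49.8% below. Of the 3' UTR peaks, 3308 were above 0 and 3579 below. No member passed the test. In limma, 0 of 4177 members had an adjusted p under 0.05, as did 0.0% of all 22504 peaks tested; the smallest adjusted value was 0.784.

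Unadjusted, limma gave p under 0.05 for 46 higher and 13 lower members, against a background of 0.769% higher and 0.298% lower over all peaks. This is fewer than 5 in 100 in each case. limma-voom gave 98 higher and 31 lower members at that level, and again 0 after adjustment. Every emetine library lay above every control library in 140 members (3.35%), against 2.55% of all peaks, and below in 48 (1.15%), against 1.43% of all peaks. The median standard error of a change was 2.06 on the log2 scale, several times the size of the median change. The change of a single member is thus poorly determined.

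**Figure D1:**
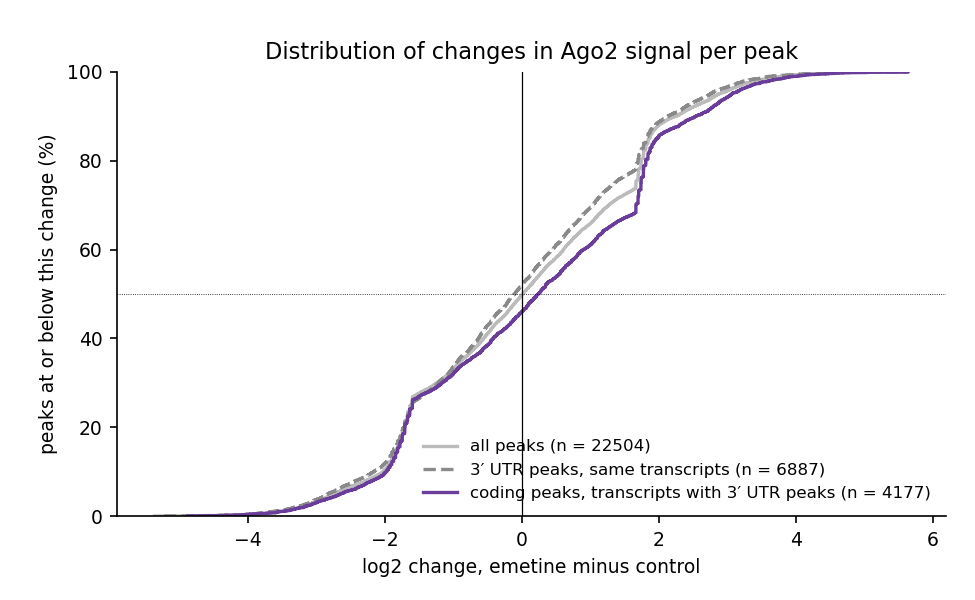
Cumulative share of peaks (y axis, percent) at or below each log2 change between emetine and control (x axis) for 4177 coding members, 6887 3' UTR peaks of the same transcripts and all 22504 tested peaks. The coding curve crosses 50% at 0.24 and the 3' UTR curve at -0.11, and the steep steps near -1.7 and 1.7 hold peaks whose reads all fall in 1 library.

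The steps in the distribution of changes come from the 1262 members with reads in 1 library, whose changes lie between 1.6 and 2.2 in size. These divide evenly, with 627 seen in 1 emetine library and 635 in 1 control library. Leaving them aside with those of 2 libraries, the 1613 members with reads in at least 3 libraries had a median change of 0.47, with 931 above 0 (57.7%) and 682 below. All peaks with such reads had 54.4% above 0 and the 3' UTR peaks 51.4%. The difference between the medians of members and 3' UTR peaks was positive with each library left out, between 0.04 without emetine library 2 and 0.61 without control library 1. The median of members itself moved from 0.24 to 0.00 without emetine library 2 or emetine library 3 and to 0.64 without control library 3. The 3' UTR median of -0.11 became 0.14 without control library 3, 0.05 without emetine library 1 and 0.00 without control library 2, and it was 0.06 for peaks with reads in at least 3 libraries. With libraries 2 and 3 of each treatment alone the medians were 0.36 for members and -0.23 for the 3' UTR peaks. Without emetine library 2 or 3, the share of members above 0 was 44.3% or 46.7%. In these fits the 372 or 255 members with reads in the left-out library alone have a change of 0. Of the other members, slightly more lay below 0 than above.

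Read totals gave the same picture. Coding members held 37901 emetine and 35977 control reads, a ratio of 1.17 once scaled for the value of a read. The 3' UTR peaks of the same transcripts held 69954 and 82191 reads, a ratio of 0.946. Members without any emetine read numbered 849 (20.3%) and those without any control read 944 (22.6%). Among the 3' UTR peaks these shares were 16.8% and 12.4%. Relative to RNA, the median log2 ratio in the authors' deposited table was 0.24 for members, -0.12 for the 3' UTR peaks and 0.05 for all peaks. After the authors' scaling, the RNA of these transcripts had a median log2 ratio of 0.01 (quartiles -0.15 and 0.18) from 1 library each. Scaling can itself set the typical transcript near 0, so this median does not show that RNA levels were unchanged.

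The coding share of reads within member transcripts was then compared library by library. It was 32.9%, 37.5% and 32.9% with emetine, against 33.4%, 31.3% and 28.8% in the control. Emetine library 2 had the highest share and control library 3 the lowest, and the groups overlap because control library 1 lies above emetine libraries 1 and 3. The means were 34.4% ± 2.62 (SD, n = 3) and 31.2% ± 2.33 (SD, n = 3), a difference of 3.27 percentage points (two-sided exact permutation test, p = 0.3). No p below 0.1 can be reached with 3 against 3 libraries. With equal weight for each transcript that had reads in a library, the mean shares were 40.4% and 35.5% and the groups did not overlap. The same exact test gave p = 0.1, the smallest it can give. Transcripts without reads in a library were left out of its mean, so the libraries averaged different sets of transcripts.

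Among libraries 2 and 3 of each treatment the difference was 5.17 points, whereas library 1 of each treatment had nearly equal shares, 32.9% and 33.4%. Without emetine library 2 the difference was 1.76 points. Per length, the read density of coding sequence was 0.461, 0.565 and 0.466 times that of the 3' UTR with emetine, against 0.473, 0.431 and 0.382 times without.

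**Figure D2:**
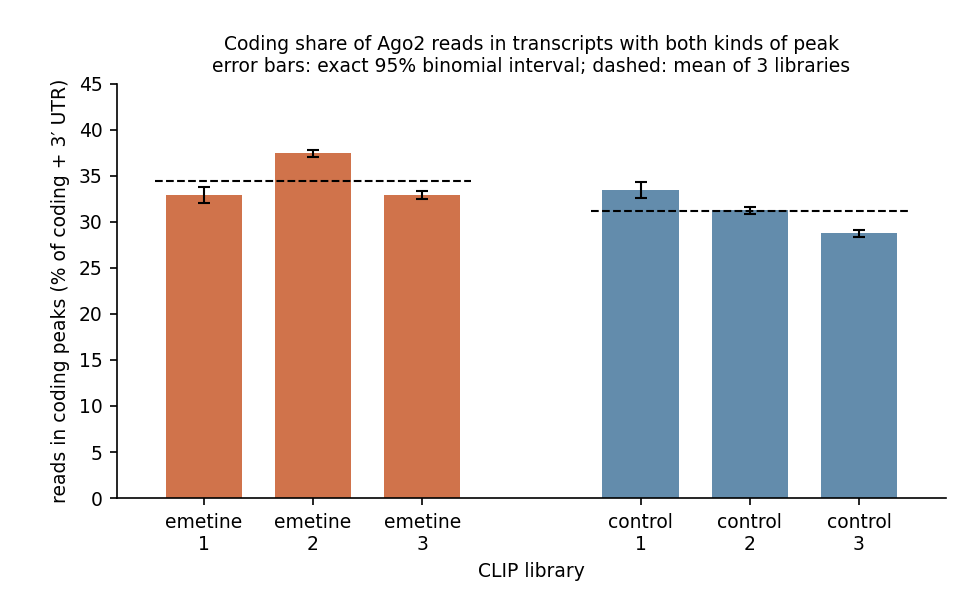
Reads in coding members as a percentage of reads in coding members and 3' UTR peaks of the same transcripts (y axis) in each CLIP library (x axis); error bars are exact 95% binomial intervals, which cover counting error only, and dashed lines are means of 3 libraries. Shares run from 32.9% to 37.5% with emetine and from 28.8% to 33.4% in the control, and control library 1 lies among the emetine values.

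The balance between coding and 3' UTR signal was also compared within every transcript, as the log2 of the ratio of their summed normalised reads, 1 added to each. Its change was above 0, towards coding sequence with emetine, in 994 of 1779 transcripts (55.9%), and 56.3% of the 1826 transcripts in the fit, ZNF genes included, were above 0. The median change was 0.37 (quartiles -1.4 and 2.19) and the median standard error 2.34. No transcript passed, as 0.0% of the transcripts in the fit were called in limma with 0.774 as the smallest adjusted p. Unadjusted, p was under 0.05 for 58 transcripts towards coding and 28 towards the 3' UTR, against 3.34% and 1.64% of all transcripts in the fit. The balance of every emetine library lay above that of every control library in 94 transcripts and below it in 49, against 5.31% and 2.79% in the fit.

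The filter on reads made little difference to the direction. Of the 807 transcripts with at least 20 reads in each region, 451 (55.9%) had a change above 0, with a median of 0.37. In that filtered fit the smallest adjusted p was 0.172 (limma). Transcripts with 6 or more members had a median of 0.48, those with 3 to 5 of 0.54, those with 2 of 0.09 and those with 1 of 0.41.

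**Figure D3:**
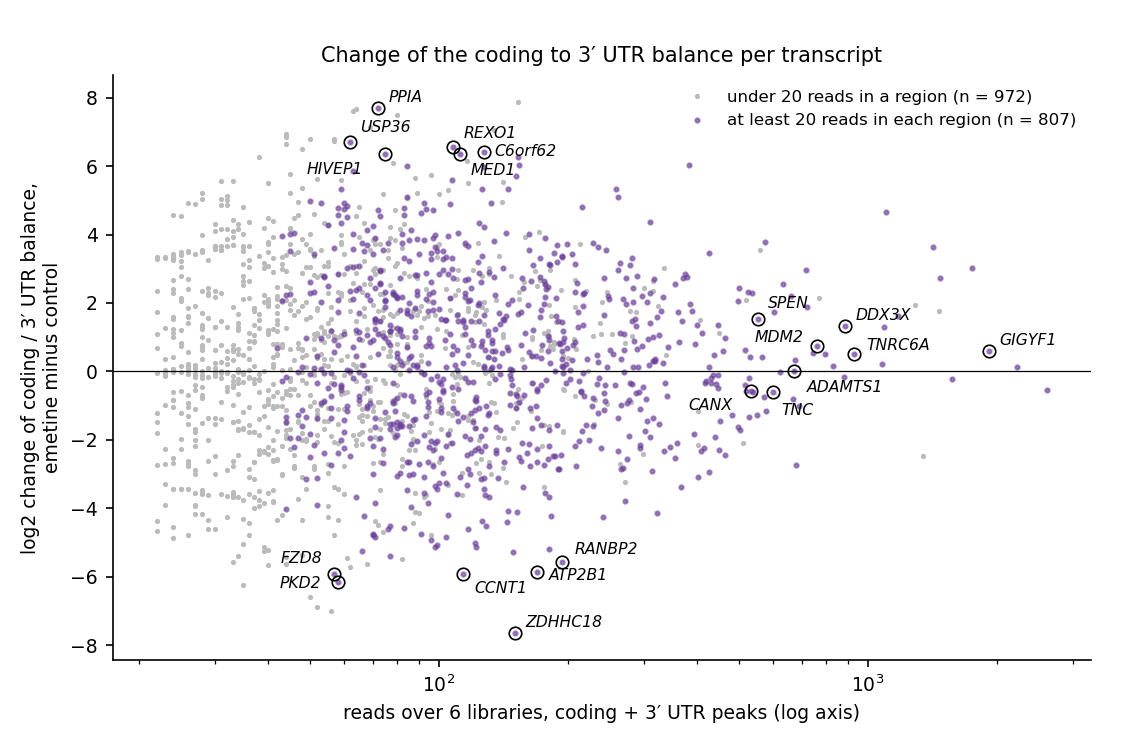
Change of the coding to 3' UTR balance (y axis, log2, emetine minus control) against the reads of the transcript over 6 libraries (x axis, log scale) for 1779 transcripts. Circles mark the 8 transcripts with the most coding reads and the 6 largest and 6 most negative changes among 807 transcripts with at least 20 reads in each region; the circled extremes lie at lower totals than those 8 transcripts, whose changes run from -0.61 to 1.54.

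The largest shifts of balance towards coding sequence were picked for their values and so tend to be overstated. PPIA, the proline isomerase cyclophilin A, is the largest at 7.69 (SE 2.83, limma adjusted p = 0.774). Its single coding peak held 0, 22 and 14 reads with emetine and none in the controls, while its 3' UTR peaks held 2, 0 and 0 reads against 5, 17 and 12. The 2 regions thus had their reads in opposite treatments, and library 1 had no coding read in either. PPIA has many processed pseudogenes, so its reads are uncertain.

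MED1, a subunit of the Mediator complex of transcription, held 2, 55 and 2 coding reads against 1, 0 and 0, and 2, 4 and 0 reads in its 3' UTR against 2, 23 and 21. Nearly all its coding reads came from emetine library 2. REXO1, an RNA exonuclease, held 3, 13 and 15 coding reads against 0, 0 and 2, a ratio of 17.2 (95% exact interval 4.38 to 149), and its 3' UTR ratio was 0.873 (0.536 to 1.41). USP36, a nucleolar deubiquitinase, held 1, 0 and 28 coding reads against 0, 6 and 0 and had 3' UTR reads in the control alone, with 3, 10 and 14. HIVEP1, a zinc finger transcription factor, held 1, 38 and 7 against 0, 1 and 3 coding reads, and C6orf62 held 7, 15 and 13 against 0, 10 and 0. In all 6 transcripts the balance of each emetine library lay above that of each control library, against 5.31% of the transcripts in the fit. The pick by large changes favours such a separation. USP36 had no read in emetine library 2 and HIVEP1 none in control library 1, so these balances were 0 through the added constant. Each of the 6 had an adjusted p of 0.774 in limma.

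In the other direction ZDHHC18, a palmitoyltransferase, had the most negative change at -7.66 (SE 2.14, limma adjusted p = 0.774). With 0 coding reads after emetine and 7, 20 and 10 without, it was at least 11.1-fold lower, a total of 0 being set to 3 reads for the treatment. Its 3' UTR had reads in both treatments, 5, 33 and 22 against 0, 9 and 44. Bounds of this kind leave out the spread between libraries and the counting error in the treatment that has reads. Every listed peak has at least 11 reads over the 6 libraries, so a peak with 0 reads in a treatment was listed through the other treatment alone.

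CCNT1, the cyclin of the transcription elongation kinase P-TEFb, held 0 coding reads against 3, 58 and 0, so control library 2 supplied nearly all of them. PKD2, a cation channel of primary cilia, held 0 against 0, 28 and 0, also from control library 2 alone. ATP2B1, a calcium pump of the plasma membrane, held 0 against 1, 33 and 3. RANBP2, a nucleoporin, held 1, 0 and 0 coding reads against 1, 34 and 25, a ratio of 0.0185 (95% exact interval 0.000461 to 0.107), with a 3' UTR ratio of 0.76 (0.527 to 1.09). FZD8, a receptor for Wnt ligands, held 2, 0 and 0 against 6, 17 and 5. The counting intervals leave out the spread between libraries, and limma gave an adjusted p of 0.774 for each of these transcripts too.

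The transcripts with the most coding reads give the best determined levels. TNC encodes tenascin-C, a large glycoprotein of the extracellular matrix. Its 35 members held 61, 74 and 48 reads with emetine against 49, 121 and 204 without, and its 2 peaks in the 3' UTR held 1, 5 and 17 against 3, 3 and 15. Control library 3 had the most reads, but after scaling emetine library 1 was the highest of the 6 for coding reads. With emetine 13 members were higher and 22 lower. The ratio of coding totals was 0.544 (95% exact interval 0.453 to 0.651), while the change of balance was -0.61 (SE 1.35, limma adjusted p = 0.935). Coding peaks took 88.8% of the TNC reads with emetine and 94.7% in the control.

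MDM2, the ubiquitin ligase that restrains p53, differed between its regions. Its 8 coding members held 11, 156 and 118 reads with emetine against 6, 68 and 74, a ratio of 2.14 (95% exact interval 1.75 to 2.63). Its 18 peaks in the 3' UTR held 14, 58 and 61 against 5, 137 and 51, a ratio of 0.766 (0.609 to 0.960). The coding totals of emetine libraries 2 and 3 are above those of every control library, but the change of balance was 0.75 with an SE of 1.16 (limma adjusted p = 0.916). The most-read MDM2 member, on chromosome 12 from 69207365 to 69207392 (plus strand, hg19), held 5, 97 and 61 reads against 3, 59 and 42.

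DDX3X, an RNA helicase that acts in translation initiation, had the same arrangement. Its 15 members held 11, 139 and 80 reads with emetine against 9, 53 and 31, a ratio of 2.75 (95% exact interval 2.15 to 3.54), and 14 of the 15 were higher. Its 3' UTR held 21, 69 and 136 reads against 16, 209 and 112, a ratio of 0.745 (0.627 to 0.885). The coding share of DDX3X reads was 50.4% with emetine and 21.6% in the control, and the change of balance was 1.32 (SE 1.10, limma adjusted p = 0.821).

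SPEN, a transcriptional corepressor, held 26, 114 and 119 coding reads against 18, 78 and 109 over 26 members, a ratio of 1.4 (95% exact interval 1.16 to 1.69). Its 3' UTR ratio was 0.528 (0.327 to 0.835). GIGYF1, an adaptor for a cap-binding translational repressor, held 22, 136 and 71 coding reads against 15, 71 and 58, a ratio of 1.77 (1.43 to 2.19), beside a 3' UTR ratio of 1.03 (0.935 to 1.14). After scaling, emetine library 2 was the highest of the 6 for coding reads of MDM2, TNRC6A, GIGYF1 and DDX3X.

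CANX, which encodes calnexin, a lectin chaperone of the endoplasmic reticulum, went the other way. Its 18 members held 14, 69 and 17 reads with emetine against 18, 86 and 141, a ratio of 0.454 (95% exact interval 0.356 to 0.575), with 5 higher and 13 lower. Its 3' UTR ratio was 0.721 (0.531 to 0.975), and the change of balance was -0.58 (SE 1.54, limma adjusted p = 0.948). ADAMTS1, a secreted metalloprotease, held 26, 34 and 103 against 43, 46 and 133 coding reads, and its regions had similar ratios, 0.816 (0.662 to 1.00) and 0.745 (0.584 to 0.948). Its change of balance was close to 0.00.

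**Figure D4:**
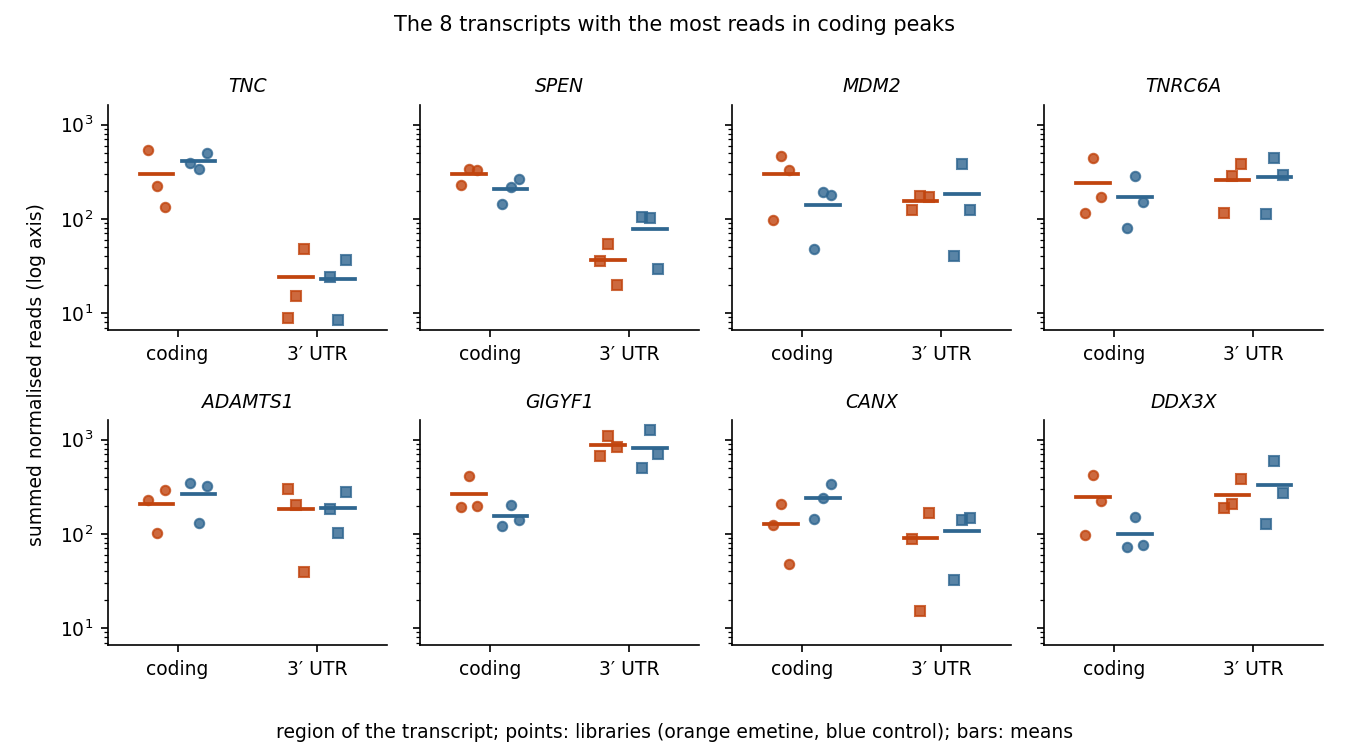
Summed normalised reads (y axis, log scale) in coding members and in 3' UTR peaks (x axis) of the 8 transcripts with the most coding reads; points are the 3 libraries of each treatment and bars their means. In MDM2 and DDX3X the coding mean is higher with emetine and the 3' UTR mean is not, in CANX both means are lower with emetine, and points of the treatments overlap in most panels.

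Single members with the most extreme changes were likewise picked for their values. Where a treatment has 0 reads, the peak was listed through the other treatment alone, and its bound reflects that minimum of reads and the pick. The coding peak of LMNB1, a lamin of the nuclear envelope, lies on chromosome 5 from 126168385 to 126168403 (plus strand) with 85 of its 87 reads from emetine libraries, and its change was 5.64 (SE 1.81). It is 1 of 6 members in LMNB1, of which 5 were higher with emetine. Together they held 12, 108 and 42 reads against 0, 33 and 21, a ratio of 3.33 (95% exact interval 2.44 to 4.62). The difference over the whole coding sequence was thus smaller than at that peak.

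BTG3, an antiproliferative protein, showed the same direction in each of its 3 members. They held 6, 40 and 15 reads with emetine and 0 in the controls, at least 22.6-fold higher, while its 3' UTR held 17, 51 and 59 against 8, 94 and 92, a ratio of 0.727 (95% exact interval 0.577 to 0.914). The balance of BTG3 differed by 6.04 (SE 1.31, limma adjusted p = 0.774). KPNB1, the nuclear import receptor importin beta, held 13, 58 and 44 coding reads against 5, 13 and 8 over 7 members, a ratio of 4.91 (3.19 to 7.84). Its most extreme member drew 34 of 41 reads from emetine library 3.

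PSMB6, a catalytic subunit of the proteasome, and GSR, glutathione reductase, each have 1 member. PSMB6 held 2, 20 and 13 reads against 0, at least 13-fold higher, and GSR held 5, 7 and 12 against 0, at least 8.89-fold higher. Both peaks were listed through their emetine reads alone. In HSP90AA1, a cytosolic chaperone, the extreme member held 7, 2 and 30 reads against 0, but its 6 members together gave a ratio of 1.41 (95% exact interval 1.00 to 2.00) and its 3' UTR a ratio of 3.56 (2.23 to 5.90). For summed reads the gene thus had a lower coding share with emetine, 51.0% against 72.4%. The balances of the libraries overlapped between treatments, and the change of balance was -0.40 (SE 1.58, limma adjusted p = 0.962).

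Among the most negative members, a CANX peak on chromosome 5 from 179149981 to 179150020 (plus strand) held 0 reads against 4, 25 and 4. PHAX, an export adaptor for small nuclear RNAs, held 0 against 4, 17 and 3, and LAMP1, a lysosomal membrane protein, 0 against 6, 15 and 2. TMEM109 held 0, 0 and 1 against 6, 24 and 5, CALU, a calcium-binding protein of the secretory pathway, 0 against 2, 13 and 5, and HNRNPU, a nuclear RNA-binding protein, 0 against 4, 4 and 8. The 3' UTRs of these genes did not share 1 direction. LAMP1 had a 3' UTR ratio of 10.0 (95% exact interval 3.58 to 38.7), CALU of 3.19 (2.12 to 4.94) and HNRNPU of 1.91 (1.51 to 2.42), against 0.101 (0.0264 to 0.277) for PHAX. All members in this and the preceding paragraphs on extreme peaks had a limma adjusted p of 0.784.

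Gene lists were described by the number of their coding members above and below 0 and by the median change, next to 50.2% above 0 and a median of 0.01 over all peaks. In every list 0 members passed the test. The coding share of reads separated the treatments for DNA replication, microRNA machinery and let-7 targets, and it overlapped in all the other lists. These shares pool reads over genes, and for microRNA machinery the median change of balance per transcript was below 0. Over all member transcripts the shares overlapped for summed reads. With equal weight per transcript they did not, at 37.7%, 44.1% and 39.5% with emetine against 34.0%, 37.5% and 34.9%. The lists with medians above 1 were the cytoskeleton, DNA replication, chaperones and ribosomal proteins. The list of endoplasmic reticulum folding and ATF4 genes had the lowest median. Many genes here have near-identical copies (actins, tubulins, histones, ribosomal proteins, HSP90AA1), so their reads are uncertain.

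**Figure D5:**
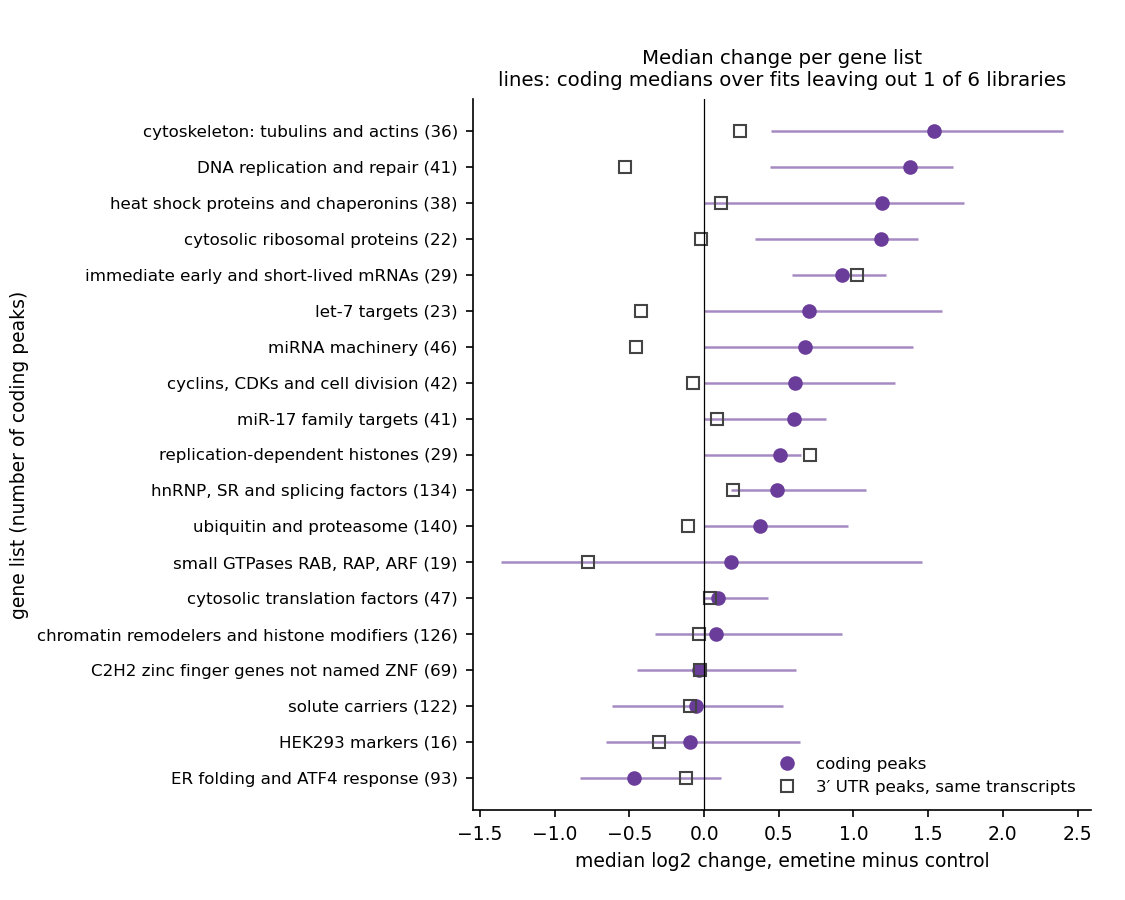
Median log2 change (x axis, emetine minus control) of coding members (filled circles) and of 3' UTR peaks of the same transcripts (open squares) in 19 gene lists (y axis, number of members in parentheses); lines span the coding medians of the 6 fits that leave out 1 library. Tubulins and actins lie highest at 1.54 and endoplasmic reticulum folding lowest at -0.47, and the lines of several lists reach 0.

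Of 36 members in tubulin, actin and related cytoskeletal genes, 24 were above 0 and 12 below, with a median of 1.54, against a median of 0.24 for their 3' UTR peaks. Much of this came from 2 genes, ACTG1 with 7 of 10 members above 0 and ACTB with 7 of 7. They held 203 and 128 of the list's 533 emetine coding reads. Per transcript, 5 of 9 had a change of balance above 0, with a median of 0.16. Leaving out emetine library 3 brought the coding median to 0.45. The coding share of reads was 40%, 73.2% and 55.7% with emetine, against 36.4%, 48% and 34.2% in the control. ACTG1, cytoplasmic gamma actin, held 11, 128 and 64 coding reads against 5, 26 and 35, a ratio of 3.42 (95% exact interval 2.58 to 4.58), and 15, 13 and 61 reads in its 3' UTR against 14, 90 and 62, a ratio of 0.596 (0.455 to 0.775). Its balance was higher in every emetine library than in any control library, with a change of 2.32 (SE 1.35, limma adjusted p = 0.787). ACTB, cytoplasmic beta actin, held 11, 52 and 65 coding reads against 10, 5 and 21, but its 3' UTR ratio was also above 1, at 2.09 (1.43 to 3.10).

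Chaperones and chaperonins had 28 members above 0 and 10 below, with a median of 1.19, and their 3' UTR peaks had a median of 0.11. The members held 41, 349 and 127 reads with emetine and 13, 68 and 151 without, so emetine library 2 supplied most of them, and without it the median was 0.00. With libraries 2 and 3 of each treatment alone, 26 were above 0 and 12 below. HSP90B1, the HSP90 of the endoplasmic reticulum, held 9, 37 and 22 coding reads against 2, 7 and 44. The groups overlap there because control library 3, after scaling, lay above emetine libraries 1 and 3.

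DNA replication and repair genes had 24 members above 0 and 17 below, with a median of 1.38 and a 3' UTR median of -0.53. The list also takes in LMNB1, the lamin described above. Their coding share was 73.6%, 70.8% and 73.5% with emetine and 28.3%, 47.4% and 49.1% without, which do not overlap. The median was 0.61 without emetine library 2 and 0.44 without emetine library 1. With libraries 2 and 3 of each treatment alone the list's median was -0.02, with 19 above 0 and 21 below. PCNA, the sliding clamp of replication, held 38, 80 and 57 coding reads against 3, 1 and 5, a ratio of 21.6 (95% exact interval 11.1 to 48.0). Its single 3' UTR peak held 1, 10 and 5 against 0, so both regions had more reads with emetine and the change of balance was 0.39 (SE 1.81, limma adjusted p = 0.970). In the main fit the most-read PCNA member had a limma adjusted p of 0.784. With a block by library number, added after seeing the data, limma gave it an adjusted p of 0.0150. Coding members of the whole list held 713 emetine and 428 control reads, and most of that excess lay in PCNA and LMNB1.

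Among cytosolic ribosomal proteins 15 members were above 0 and 7 below, with a median of 1.18, in only 9 genes. That median was 0.34 without emetine library 3. RPL18, of the large subunit, held 1, 57 and 40 coding reads against 4, 0 and 5, a ratio of 12.1 (95% exact interval 6.12 to 27.2). Nearly all of its reads came from emetine libraries 2 and 3. Members in translation factors were close to even, with 24 above 0 and 23 below and a median of 0.10 (0.00 to 0.43 with single libraries left out). Their coding to 3' UTR balance was not, with a change above 0 in 5 of 12 transcripts and a median of -1.59. EEF2, the factor that moves the ribosome along the message, held 28, 66 and 65 coding reads against 35, 73 and 50, a ratio of 1.12 (0.892 to 1.4), while its 3' UTR ratio was 2.47 (1.69 to 3.66). EIF4G2, an initiation factor homologue, held 11, 67 and 53 against 7, 4 and 62, and its balance was higher in every emetine library than in any control library (change 1.35, SE 1.24, limma adjusted p = 0.841).

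In the list of endoplasmic reticulum folding and ATF4 response genes, 41 members were above 0 and 52 below, with a median of -0.47 and a 3' UTR median of -0.12. Read totals were 81, 363 and 222 with emetine against 108, 337 and 573 without. Control library 3 had the most, and without it the median was 0.11. CALR, the soluble lectin chaperone calreticulin, held 9, 33 and 86 coding reads against 16, 13 and 122, a ratio of 0.942 (95% exact interval 0.738 to 1.2), so CANX and CALR differed in size.

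The microRNA machinery and known targets of abundant microRNA families were examined because their sites lie mainly in 3' UTRs. Machinery genes had 30 members above 0 and 16 below, with a median of 0.67, against a 3' UTR median of -0.46 over 137 peaks. Their coding share of summed reads was 26.1%, 27.8% and 29.3% with emetine and 14.3%, 19.9% and 25.2% without, which do not overlap. The median of members was 0.00 without emetine library 2. Per transcript the direction differed, as the change of balance was above 0 in only 5 of 13 transcripts, with a median of -0.53. TNRC6A alone held 221 of the 504 emetine and 173 of the 431 control coding reads of the list. TNRC6A, the GW182 protein that links Ago2 to deadenylation, held 13, 147 and 61 coding reads against 10, 101 and 62, a ratio of 1.42 (95% exact interval 1.16 to 1.74), and its 3' UTR ratio was 0.939 (0.789 to 1.12). EIF2C2, the older symbol of the gene for Ago2 itself, held 17, 54 and 27 coding reads against 3, 11 and 42. Its most-read member, on chromosome 8 from 141582972 to 141583025 (minus strand), held 11, 27 and 14 reads against 3, 11 and 10. After scaling, each emetine library there was above each control library, with a change of 1.34 (SE 1.46, limma adjusted p = 0.784).

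Listed let-7 targets had few coding members, 23 beside 230 peaks in their 3' UTRs. Of these members 14 were above 0 and 9 below, with a median of 0.70, and the 3' UTR median was -0.42. Their coding share of reads was 5.13%, 11% and 7.49% with emetine, against 2.46%, 4.34% and 4.22% without. The groups do not overlap, although the median of members was 0.00 without emetine library 2 and 0.05 without emetine library 3. IGF1R, a growth factor receptor, held 3, 20 and 0 coding reads against 0, 31 and 0, while its 27 peaks in the 3' UTR held 14, 82 and 79 against 41, 213 and 152, a ratio of 0.479 (95% exact interval 0.399 to 0.573). DICER1, which cuts microRNA precursors, held 3, 13 and 10 coding reads against 0, 1 and 20, and 18, 70 and 97 in its 3' UTR against 18, 210 and 41.

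Listed targets of the miR-17 family had 22 members above 0 and 19 below, with a median of 0.60. It was 0.00 without emetine library 2 or 3 and -0.35 over members with reads in at least 3 libraries. SMAD7, an inhibitor of TGF-beta signalling, carries 172 reads in its most-read member on chromosome 18 from 46448129 to 46448169 (minus strand), with 1, 72 and 22 with emetine against 7, 41 and 29 without. Its coding ratio was 1.94 (95% exact interval 1.46 to 2.59) and its 3' UTR ratio 4.04 (2.03 to 8.73). ZBTB4, a methyl-CpG binding repressor, held 8, 6 and 18 coding reads against 23, 40 and 8, and all 7 of its members were below 0. Within the list, single genes went in opposite directions.

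Splicing factors had 76 members above 0 and 58 below, with a median of 0.49, which was 0.18 without control library 3. DDX5, an RNA helicase, held 24, 30 and 32 coding reads against 12, 95 and 63, a ratio of 0.562 (95% exact interval 0.429 to 0.733), and SFPQ, a paraspeckle protein, 30, 28 and 58 against 52, 16 and 46. Chromatin remodelers and histone modifiers had 64 above 0 and 62 below, with a median of 0.08. MLL2, a histone methyltransferase, held 26, 48 and 28 against 12, 105 and 34 reads over 15 members, and ASH1L, another, 15, 65 and 24 against 16, 44 and 55 over 14 members. C2H2 zinc finger genes with other names than ZNF had 34 above 0 and 35 below, with a median of -0.03. With single libraries left out, the medians ran from -0.33 to 0.92 for chromatin genes and from -0.45 to 0.61 for these zinc finger genes. Coding peaks of MAZ, a zinc finger transcription factor of this list, came largely from library 1, with 91, 21 and 28 reads against 100, 23 and 32.

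Cell cycle genes had 24 members above 0 and 18 below, with a median of 0.61, and coding peaks took 10.1% to 11.7% of their reads in each library. Their median was 0.00 without emetine library 3, 0.05 without emetine library 2 and 0.13 with libraries 2 and 3 of each treatment alone. WEE1, the kinase that holds CDK1 inactive, held 10, 75 and 70 coding reads against 10, 18 and 68 and far more in its 3' UTR, 95, 556 and 489 against 53, 312 and 473. The regions had similar ratios, 1.79 (95% exact interval 1.38 to 2.34) and 1.51 (1.38 to 1.65). CDK16, a cyclin-dependent kinase, had a coding ratio of 0.341 (0.227 to 0.502) beside a 3' UTR ratio of 0.948 (0.781 to 1.15). Ubiquitin and proteasome genes had 79 members above 0 and 61 below, with a median of 0.38, or 0.00 without emetine library 2 or 3. UBE3C, a ubiquitin ligase, held 12, 78 and 52 coding reads against 6, 35 and 34, and RNF219, a RING finger protein, held 4, 73 and 62 against 8, 18 and 10, a ratio of 4.29 (2.96 to 6.37).

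Membrane and trafficking genes were close to even. Solute carriers had 57 members above 0 and 65 below, with a median of -0.05 (-0.61 to 0.53 with single libraries left out). SLC16A1, a lactate transporter, held 5, 10 and 42 coding reads against 11, 53 and 75, and SLC20A1, a phosphate transporter, 1, 54 and 47 against 31, 39 and 16. The list of RAB, RAP and ARF genes had 10 above 0 and 9 below, with a median of 0.18 that was -1.36 without emetine library 3 and 1.46 without control library 3. RAB14, a GTPase of endosomes, held 0, 0 and 9 coding reads against 1, 11 and 7. RAB11FIP2, which the list takes in by its symbol and which is an effector and no GTPase, held 0, 33 and 0 against 0, 0 and 8.

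Replication-dependent histones had 16 members above 0 and 13 below, with a median of 0.50 (0.00 without control library 2 and 0.08 without emetine library 3), and 11 of their 14 peaks in the 3' UTR were above 0. HIST1H3B held 5, 15 and 26 coding reads against 6, 47 and 36, a ratio of 0.574 (95% exact interval 0.393 to 0.829), and HIST1H3H 0, 30 and 20 against 0, 43 and 11, a ratio of 1.03 (0.686 to 1.54). Immediate early and short-lived mRNAs had 18 members above 0 and 11 below, with a median of 0.93 (0.59 without emetine library 3). Here the 3' UTR peaks were on the same side, with 120 of 174 above 0 and a median of 1.03. BTG2, an antiproliferative early gene, held 3, 51 and 28 coding reads against 8, 37 and 23, a ratio of 1.34 (0.960 to 1.88), and its 3' UTR had nearly the same ratio, 1.36 (1.25 to 1.47). Of its 7 coding members 3 lie within 50 bases of a 3' UTR peak. The most-read of the 7 overlaps such a peak, so the 2 ratios are not fully separate. The regions of SOX4, a transcription factor, also had like ratios, 1.15 (0.678 to 1.94) and 1.15 (0.95 to 1.38).

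Among the listed markers of the cell line 8 members were above 0 and 8 below, with a median of -0.09 (-0.65 to 0.64 with single libraries left out). NEFL, the neurofilament light chain, which HEK293 cells express, held 8, 73 and 74 coding reads against 13, 49 and 71 over 12 members, a ratio of 1.29 (95% exact interval 1.02 to 1.65), and its 3' UTR ratio was 0.734 (0.605 to 0.889). VIM, vimentin, held 1, 0 and 0 coding reads against 0, 20 and 13, with a 3' UTR ratio of 0.314 (0.156 to 0.591).

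Members that drew most of their signal from library 1 were counted because that library differs from the others in both treatments. In 247 members (5.91%) library 1 supplied over 50% of the normalised reads in both treatments, against 5.56% of the 3' UTR peaks of the same transcripts and 8.47% of all peaks. The most-read of them are the MAPK8IP2 member above and a member of CENPB, a centromere protein, with 25, 27 and 17 reads against 36, 20 and 18. The MAZ member that overlaps a 3' UTR peak held 25, 0 and 6 reads against 12, 0 and 3, and a member of SNRNP70, of the U1 splicing particle, 17, 4 and 0 against 9, 1 and 0. At the other end, 2244 members (53.7%) had no read in library 1 of either treatment.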

How the data were processed

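Ago2 binding and RNA were measured in 293S cells, with and without emetine. Per the file headers, the authors deposited 1 table with position, strand, region, gene, RefSeq transcript, a normalised log average and a log ratio of emetine to no emetine per peak. The headers do not state the base of these logarithms, and the deposited values were read as the natural log, the scale on which whole reads were recovered. The submitters' processing notes name hg19, Bowtie 0.12.8, TopHat and DESeq, without roles. The peak caller, its settings and the start convention are not stated there or in the header, so coordinates are printed as listed.

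Average plus or minus 0.5 times the ratio gives 1 value per treatment. Each was found to equal ln(1 + reads × factor) averaged over the 3 CLIP libraries, less the same logarithm of the RNA library. Factors and whole reads were searched for, with a tolerance of 1e-13. They were recovered for 22504 of 22506 peaks, and 0 of 3147 and 0 of 3146 shifted values for transcripts with 1 peak matched by chance. One read was worth 8.86, 3.00 and 2.81 in emetine and 8.00, 2.82 and 2.43 in control libraries. Every peak has at least 11 reads. Reads in peaks only are known, and amplified reads are not independent molecules, so exact 95% intervals cover counting error only. Of the members, 245 repeat the reads of another member of their transcript in all 6 libraries. Overlapping peaks can share reads, and totals, bounds and intervals count such reads in each peak.

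The log2(reads × factor + 1) of each peak entered limma 3.58.1 (R 4.3.3, intensity trend) with treatment as the only term, no filter, and Benjamini-Hochberg adjustment over all peaks at 0.05. The coding to 3' UTR balance was fitted likewise over 1826 transcripts. Shares were compared with exact permutation tests in scipy 1.17.1 (Python 3.11.15), and figures were drawn with matplotlib 3.10.9. Ratios are read totals per treatment divided by the summed inverse factors, with 0 set to 3 reads. Region lengths came from GENCODE 29, matched by RefSeq identifier and used as lengths only, since that annotation is of another build. Alternatives were the added constant, the scaling, filters, identical or neighbouring peaks, limma-voom and each library left out; libraries 2 and 3 alone, and the library number as a block, were added after seeing the data.

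Named are the 8 transcripts with the most coding reads, the 4 with the most members, the 6 largest and 6 most negative changes among members at or above the median total, the 6 largest and 6 most negative balances with at least 20 reads in each region, and up to 2 genes per list with the most coding reads; 1 of these genes is not reported here. MAPK8IP2, CENPB and SNRNP70 were named after their values were seen. The members, lists and tests were chosen with earlier results of these data known. Seed matches and positions within coding sequence were left out, since a genome of the files' build was not used here.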

Additional observations from a re-analysis of the deposited data

How the results depend on the processing

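The count of members called was 0 under each of the alternatives without a block, with smallest adjusted p-values from 0.273 to 0.979 (limma), and the count of transcripts called for their balance was 0 under each of 15, from 0.172 to 0.870. The median change of members ranged from 0 to 0.643 when 1 library was left out, against 0.24 with all, being 0 without emetine library 2 or 3 and highest without control library 3; the cause was not tested. Under the other alternatives it stayed between 0.146 and 0.469. The median change of balance was positive under all 15 alternatives, from 0.210 to 0.516, both ends from leaving out a library, and the difference in coding share ran from 1.76 to 5.17 percentage points with exact permutation p from 0.1 to 0.6. At an unadjusted p under 0.05, the 59 members became 129 with limma-voom, 92 without control library 3 and 139 with libraries 2 and 3 alone, and the 86 transcripts became 33 with at least 20 reads in each region and 37 with libraries 2 and 3 alone, where fewer samples or transcripts were fitted. Scaling by the median of ratios moved the median of all peaks to -0.09 and kept that of members at 0.21; leaving out control library 3 moved all peaks to 0.19 and control library 1 to -0.11. TMM scaling was not run and the median of ratios took its place. The antibodies that pair the libraries are not assigned to the recovered libraries, so no block by antibody was fitted. The library numbers come from the value of 1 read, not from the labels, and same-numbered libraries have similar noncoding shares. Over all peaks, the deviations of same-numbered libraries from their group means correlated by 0.146, 0.0415 and 0.0398 for numbers 1, 2 and 3. Between libraries of different numbers these correlations ran from -0.0848 to 0.0329. Over coding members they were 0.0460, -0.00147 and 0.0221 within numbers, against -0.0381 to 0.0112 between numbers. A replicate block by that number, added after seeing the data, called 1 member, the PCNA peak (change 4.34, SE 0.90, limma adjusted p = 0.0150, against 0.784 without the block), and 0 transcripts, gave 121 members and 64 transcripts at an unadjusted p under 0.05, and left the medians as they were. Within numbers 1, 2 and 3 the coding share differed by -0.54, 6.16 and 4.18 percentage points (exact permutation within numbers, p = 0.5), or by 3.72, 6.54 and 4.60 with equal weight per transcript (p = 0.25, the smallest possible).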
